A study of Mus musculus with 12 samples.

Results

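The anti-apoptotic branch of the BCL2 family comprised 7 mouse genes here: Bcl2, Bcl2l1, Bcl2l2, Mcl1 and the A1 genes Bcl2a1a, Bcl2a1b and Bcl2a1d. Members were found by their symbol among the probes of a custom Agilent expression array. Of the 29411 gene symbols carried outside the noncoding RNA probes, 6 were members. They had 11 of the 61307 probes, and no probe carried the symbol Bcl2a1d. All 11 member probes were bright enough to be tested, and 10 were well above background on all 12 arrays.

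These proteins sit on the outer membrane of mitochondria and hold the pore-forming effectors BAX and BAK in check. BH3-only proteins bind them and release the effectors, so the balance of both groups sets whether a cell dies. B cells are known to depend on several of them at different stages. CD40 and Toll-like receptors both signal to NF-kB, and Bcl2l1 and the A1 genes are known NF-kB target genes.

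The arrays measured total RNA of resting B (RB) cells from the spleen of BALB/c mice, labelled as females of 6 weeks, whereas the study's methods allow either sex. The cells were purified by removing CD43-bearing cells and were cultured for 4 h, with 2 arrays for each of 6 conditions. The conditions were unstimulated cells, the TLR2 ligand Pam2CSK4 (50 ng/ml in the methods), anti-CD86 (cross-linked with streptavidin), both of these together (TLR2.CD86), anti-CD40, and anti-CD40 with Pam2CSK4. The dose of anti-CD40 was not given in the sources used here, and every condition was a bulk culture of the same wild-type strain. The study's figure legends call them biological replicates. The labels do not say whether both samples of a condition came from separate mice, and p-values measure the spread between these samples.

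Of the 8 B cell markers, 8 were well above background in every condition, and Cd79b and Blnk were saturated on all 12 arrays. All 9 myeloid markers were also well above background, led by S100a9, which was saturated on 12 arrays. Over the 8 myeloid markers that were never saturated, the summed signal relative to the 75th percentile was 324 to 327 in unstimulated cells and between 176 and 254 in stimulated cells. Over the 6 B cell markers that were never saturated it was 162 to 163 in unstimulated cells and 216 to 225 with anti-CD40 + Pam2CSK4. Of the 4 plasma cell markers, Irf4 was at 7.499 and 7.532 in unstimulated cells and at 34.8 and 36.9 with anti-CD40 + Pam2CSK4 on the same scale, while the sum of Sdc1, Prdm1 and Xbp1 was 12.4 in unstimulated cells and 7.89 to 8.49 there. The sums of the 7 T cell and 5 NK cell markers ran from 22.5 to 34.6 and from 6.93 to 12.9 over the 12 arrays, highest in unstimulated cells. The part of these shifts in the results was not tested. In bulk RNA, fewer cells of a type and less RNA per cell cannot be told apart. The arrays lay on 2 slides. Slide 1 held 8 arrays and slide 2 held 4, which were replicate 2 of each condition other than unstimulated and anti-CD40 + Pam2CSK4. The share of spots well above background was 46.6% to 50.6% on slide 1 and 48.7% to 60.6% on slide 2, with 3 of the 4 slide 2 arrays above every slide 1 array.

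Probes were assigned to genes by their listed symbol, and no probe was aligned to transcripts here. The sequences of 6 probes are shown. They are written 5′ to 3′ as the array files give them, and only the first 30 of 60 bases are shown for the last pair. Capitals are not used in these.
Bcl2, brightest probe: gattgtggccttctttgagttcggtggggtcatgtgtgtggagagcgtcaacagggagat
Bcl2l1, second probe: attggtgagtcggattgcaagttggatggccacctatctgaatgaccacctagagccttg
Bcl2a1b, brightest probe: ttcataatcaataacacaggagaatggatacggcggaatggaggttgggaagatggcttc
Bcl2a1c, only probe: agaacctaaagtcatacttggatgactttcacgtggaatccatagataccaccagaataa
Bcl2l1, brightest probe, first 30 bases: ttattccttgtgaagatgatatactatttt
Bcl2a1a, only probe, first 30 bases: cagcacttggcatttccttttacaaacatg

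The A1 genes are near copies of each other, and their probes cannot fully tell them apart. The file lists the Bcl2a1a probe under transcripts of both Bcl2a1a and Bcl2a1b. The dimmer Bcl2a1b probe lists only a transcript that RefSeq now assigns to Mthfsl, so its values are given but not counted for Bcl2a1b. Bcl2a1c, a further copy, is reported beside them. In the 300 bases that span each annotated start (250 before and 50 after), 254 of 256 aligned bases were identical between Bcl2a1a and Bcl2a1b, and 288 of 300 aligned positions between Bcl2a1a and Bcl2a1d. The stretch of the Bcl2a1a promoter that aligned with Bcl2a1b is shown for that likeness, from RefSeq, build GRCm38.p6, chr9:88956714-88956919, plus strand, with the single base that Bcl2a1b does not share in capitals.
Bcl2a1a promoter: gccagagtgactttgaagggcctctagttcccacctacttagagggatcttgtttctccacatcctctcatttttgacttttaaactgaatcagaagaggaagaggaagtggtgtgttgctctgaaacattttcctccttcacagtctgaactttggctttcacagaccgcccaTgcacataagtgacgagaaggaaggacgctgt

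As several members are known NF-kB targets, the 250 bases before each annotated start were searched on both strands for the NF-kB consensus and for TTCNNNGAA, a STAT motif. Of 32851 RefSeq promoter windows, 7.25% held the first and 7.02% the second. Among the 10 windows of the members and Bcl2a1c, 1 held an NF-kB match and none held TTCNNNGAA. The match lay 242 bases before 1 of the 3 annotated Bcl2l1 starts, at chr2:152830718-152830967 on the minus strand, and is in capitals.
Bcl2l1 promoter: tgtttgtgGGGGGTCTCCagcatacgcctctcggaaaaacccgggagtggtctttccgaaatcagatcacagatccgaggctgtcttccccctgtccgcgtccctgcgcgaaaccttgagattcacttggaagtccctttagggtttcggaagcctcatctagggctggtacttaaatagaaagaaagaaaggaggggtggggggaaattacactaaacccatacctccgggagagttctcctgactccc

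Signals are on a log2 scale on which 0 is the 75th percentile of the processed intensities of an array. It cannot be compared between probes. Each gene is described by its brightest probe unless another is named, and a difference was called at a Benjamini-Hochberg adjusted p under 0.05 over 31599 probes in limma, with 1 coefficient per condition.

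Bcl2l1 encodes BCL-XL, a survival protein that B cells gain on activation, and it had the widest range of the 6 members. Its log2 signal was -0.34 and -0.47 in unstimulated cells, and -0.26 and -0.21 with anti-CD86. It was 1.84 and 1.79 with Pam2CSK4, and 1.99 and 1.76 with TLR2.CD86. With anti-CD40 it was 3.55 and 3.34, and with anti-CD40 + Pam2CSK4 it was 4.41 and 4.23. The order from lowest was unstimulated, anti-CD86, Pam2CSK4, TLR2.CD86, anti-CD40 and anti-CD40 + Pam2CSK4, and Pam2CSK4 and TLR2.CD86 were the only neighbours whose arrays overlapped.

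**Figure D1:**
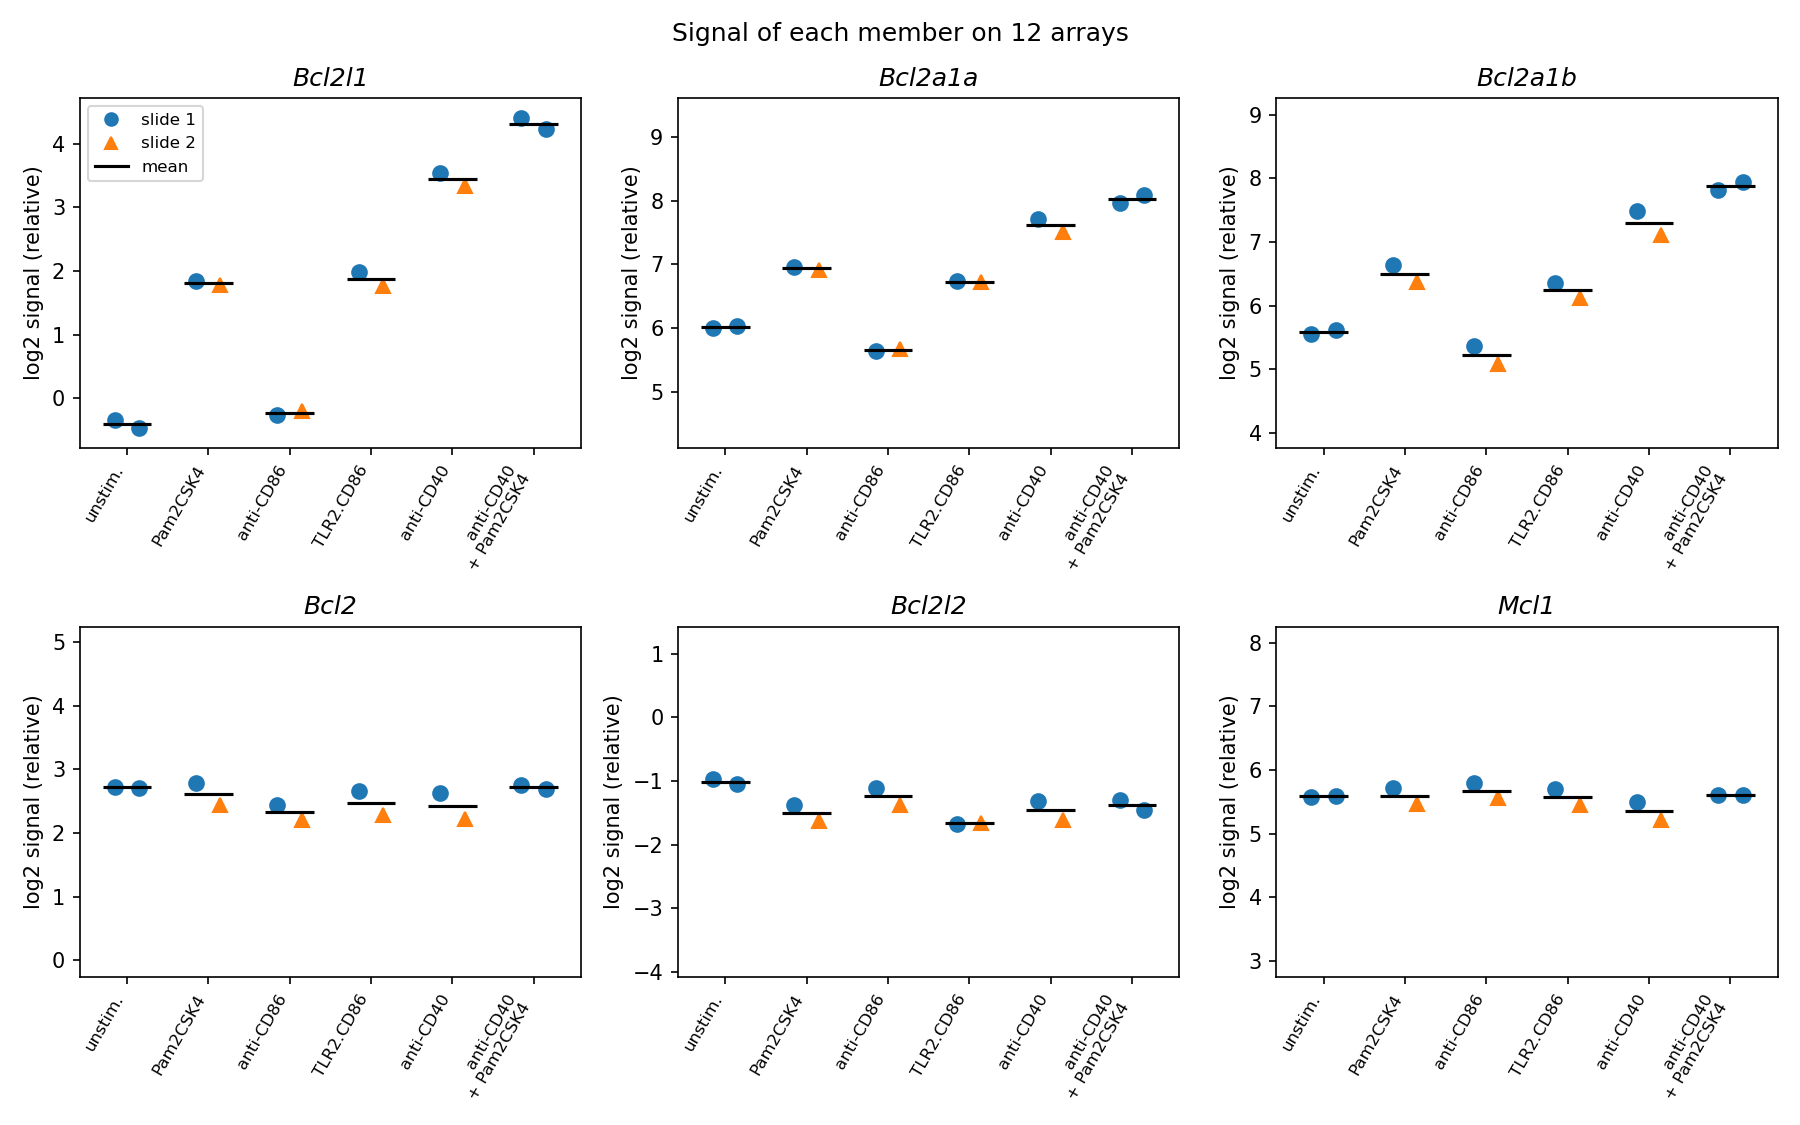
Log2 signal of the brightest probe of each member on the 12 arrays, by condition, with circles for slide 1, triangles for slide 2 and a line at the mean of the 2 arrays. Every panel spans the same height in log2 units. Bcl2l1 can be seen to climb from near 0 to above 4 and the A1 genes by about 2. The means of Bcl2, Bcl2l2 and Mcl1 stay within 1 of their unstimulated level, and those of Bcl2l2 lie below it.

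Against unstimulated cells, Bcl2l1 rose 4.65-fold with Pam2CSK4 (log2 difference 2.22 ± 0.13 SE, adjusted p = 0.00445) and 4.86-fold with TLR2.CD86 (2.28 ± 0.13, adjusted p = 0.000740). It rose 14.4-fold with anti-CD40 (3.85 ± 0.13, adjusted p = 2.89e-05) and 26.4-fold with anti-CD40 + Pam2CSK4 (4.72 ± 0.13, adjusted p = 8.47e-07). With anti-CD86 alone the difference was 0.17 (95% interval -0.13 to 0.48, adjusted p = 0.486) and was not called. On slide 1 alone these differences were 2.24, 2.40, 3.95, 4.72 and 0.14, in the same order. The SE of 0.13 comes from the spread of all 12 arrays, and when only the arrays of the groups compared were fitted, the calls for Pam2CSK4, TLR2.CD86 and anti-CD40 were lost (adjusted p = 0.212, 0.102 and 0.0824).

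The other Bcl2l1 probes had the same order of condition means, except that anti-CD86 lay below unstimulated cells. The second probe, shown above, was -3.86 and -3.23 in unstimulated cells and 1.12 and 1.07 with anti-CD40 + Pam2CSK4, a 24.9-fold difference (log2 4.64 ± 0.26, adjusted p = 4.39e-05). Its difference was 2.24 with Pam2CSK4, 2.37 with TLR2.CD86 and 3.75 with anti-CD40, all called. The third probe was not well above background in unstimulated or anti-CD86 cells, so that its differences are bounds. It was at least 2.39-fold higher with Pam2CSK4, at least 2.59-fold with TLR2.CD86, at least 6.23-fold with anti-CD40 and at least 10.51-fold with anti-CD40 + Pam2CSK4, measured against the lowest signal well above background on each array. Across the 12 arrays the brightest probe correlated with the second at r = 0.992 and with the third at r = 0.972.

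The A1 genes encode a short-lived inhibitor of apoptosis that blood cells make on activation. Bcl2a1a had a log2 signal of 6.00 and 6.03 in unstimulated cells, 6.96 and 6.91 with Pam2CSK4, 5.64 and 5.66 with anti-CD86, 6.73 and 6.73 with TLR2.CD86, 7.72 and 7.51 with anti-CD40, and 7.97 and 8.09 with anti-CD40 + Pam2CSK4. No 2 conditions overlapped, and the order from lowest was anti-CD86, unstimulated, TLR2.CD86, Pam2CSK4, anti-CD40, anti-CD40 + Pam2CSK4. Its spot was saturated on replicate 2 of anti-CD40 and replicate 1 of anti-CD40 + Pam2CSK4, where the signal can only be understated.

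Bcl2a1a rose 1.90-fold with Pam2CSK4 (log2 difference 0.93 ± 0.11, adjusted p = 0.0363), 1.65-fold with TLR2.CD86 (0.72 ± 0.11, adjusted p = 0.0138), 3.04-fold with anti-CD40 (1.60 ± 0.11, adjusted p = 0.000483) and 4.05-fold with anti-CD40 + Pam2CSK4 (2.02 ± 0.11, adjusted p = 4.09e-05). With anti-CD86 it was 0.36 lower on the log2 scale (-0.36, 95% interval -0.62 to -0.11), which was not called (adjusted p = 0.113). The Pam2CSK4 call held when either anti-CD40 array was left out and was lost without any other single array (log2 difference 0.90 to 0.95 and adjusted p 0.0324 to 0.277 over all 12). The TLR2.CD86 call was lost without either unstimulated array or without replicate 2 of TLR2.CD86 (0.70 to 0.73, adjusted p 0.0129 to 0.116 over all 12).

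Bcl2a1b, read by the probe shown above, gave 5.56 and 5.61 in unstimulated cells, 6.63 and 6.37 with Pam2CSK4, 5.36 and 5.08 with anti-CD86, 6.36 and 6.13 with TLR2.CD86, 7.49 and 7.10 with anti-CD40, and 7.82 and 7.94 with anti-CD40 + Pam2CSK4. The order of its condition means was that of Bcl2a1a, and it was not saturated on any array. It rose 3.28-fold with anti-CD40 (log2 difference 1.71 ± 0.18, adjusted p = 0.00181) and 4.92-fold with anti-CD40 + Pam2CSK4 (2.30 ± 0.18, adjusted p = 0.000218). The differences with Pam2CSK4 (0.91 ± 0.18, adjusted p = 0.104) and TLR2.CD86 (0.66 ± 0.18, adjusted p = 0.0515) were of the size seen for Bcl2a1a but were not called, and the TLR2.CD86 difference was called without either of the anti-CD40 arrays (adjusted p 0.0350 to 0.227 over the 12 arrays left out).

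The further copy Bcl2a1c gave 1.48 and 1.45 in unstimulated cells and 3.72 and 3.68 with anti-CD40 + Pam2CSK4, a log2 difference of 2.24 ± 0.16 (adjusted p = 0.000185), and it correlated with Bcl2a1b at r = 0.997 over the 12 arrays. The probe now assigned to Mthfsl moved less, with a log2 difference of 0.17 for Pam2CSK4, 0.08 for TLR2.CD86, 0.78 for anti-CD40 and 1.06 for anti-CD40 + Pam2CSK4. The pair with anti-CD40 was called (adjusted p = 0.0125 and 0.00242).

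**Figure D2:**
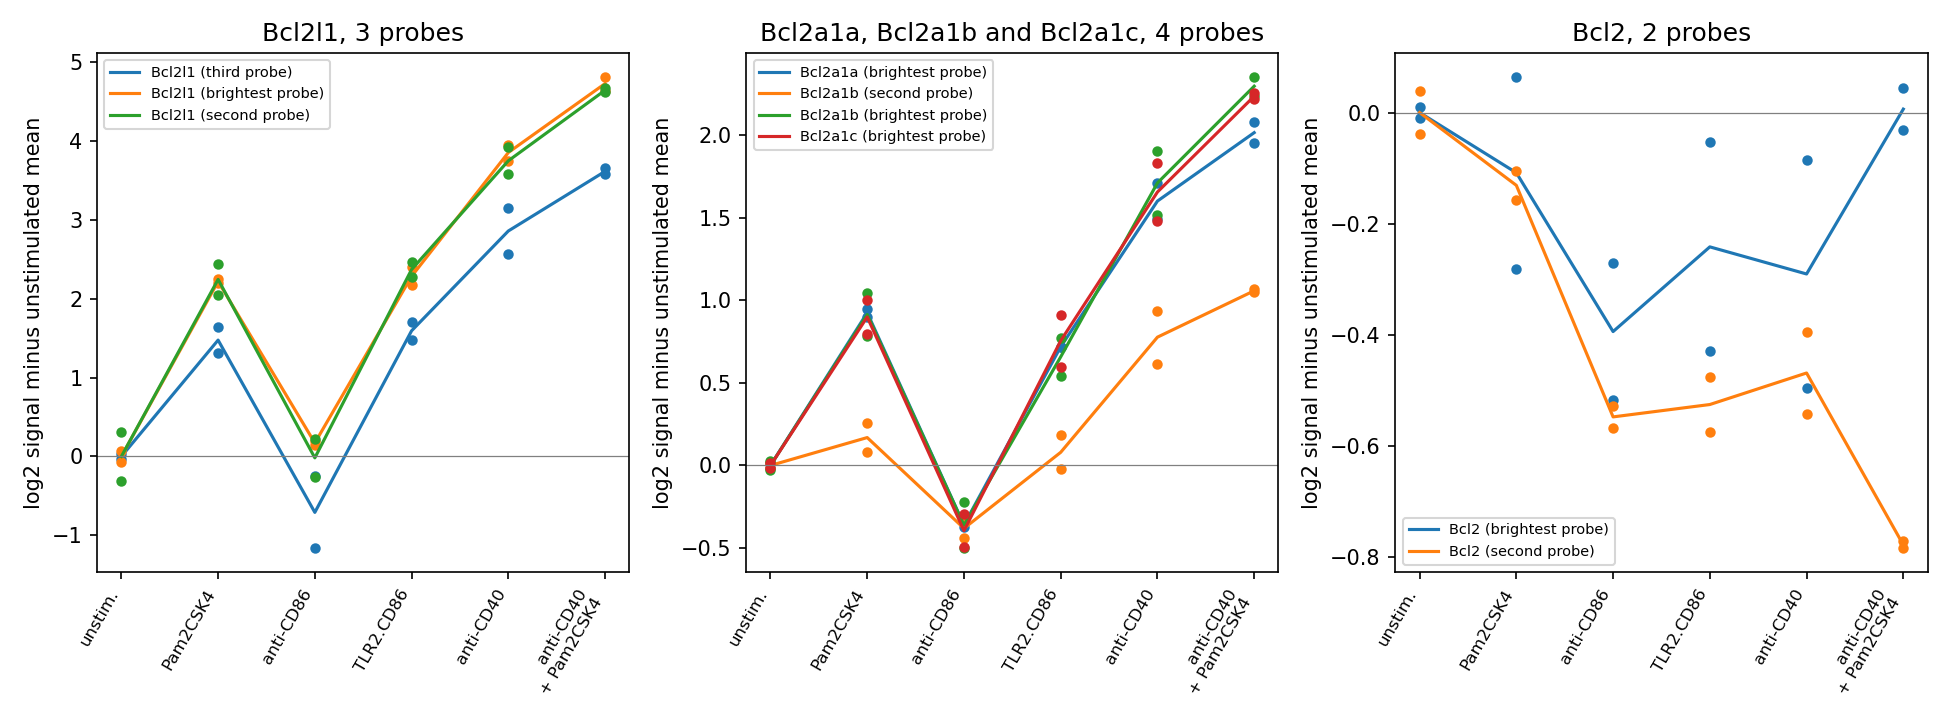
Log2 signal of every probe of Bcl2l1, of Bcl2a1a, Bcl2a1b and Bcl2a1c, and of Bcl2, minus that probe's mean in unstimulated cells, with points for arrays and lines through condition means. The 3 Bcl2l1 probes kept 1 order of conditions apart from anti-CD86 and unstimulated cells, the second Bcl2a1b probe (the one now assigned to Mthfsl) moved least of the 4, and the 2 Bcl2 probes parted at anti-CD40 + Pam2CSK4.

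Bcl2, the founding member, which keeps resting lymphocytes alive, did not rise in any condition. Its brightest probe, which lists both transcript variants, was 2.73 and 2.71 in unstimulated cells, 2.78 and 2.44 with Pam2CSK4, 2.45 and 2.20 with anti-CD86, 2.66 and 2.29 with TLR2.CD86, 2.63 and 2.22 with anti-CD40, and 2.76 and 2.68 with anti-CD40 + Pam2CSK4. In each condition split between slides the slide 2 array was the lower, and neighbouring conditions overlapped. Both arrays of anti-CD86, of TLR2.CD86 and of anti-CD40 lay below both unstimulated arrays. The largest of its differences from unstimulated cells was that of anti-CD86, at -0.39 ± 0.20 (adjusted p = 0.278), and none was called.

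The second Bcl2 probe lists transcript variant 1 only, and it parted most from the brightest probe with anti-CD40 + Pam2CSK4. It was 1.63 and 1.56 in unstimulated cells, 1.44 and 1.49 with Pam2CSK4, 1.06 and 1.03 with anti-CD86, 1.02 and 1.12 with TLR2.CD86, 1.20 and 1.05 with anti-CD40, and 0.82 and 0.81 with anti-CD40 + Pam2CSK4. No array of a stimulated condition reached the unstimulated level. It fell by 0.55 on the log2 scale with anti-CD86 (adjusted p = 0.0449), by 0.53 with TLR2.CD86 (adjusted p = 0.0246), by 0.47 with anti-CD40 (adjusted p = 0.0232) and by 0.78 with anti-CD40 + Pam2CSK4 (a 1.72-fold decrease, adjusted p = 0.00242). The correlation between both Bcl2 probes over the 12 arrays was r = 0.219.

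Bcl2l2 encodes BCL-W. It gave -0.98 and -1.05 in unstimulated cells, -1.38 and -1.63 with Pam2CSK4, -1.10 and -1.38 with anti-CD86, -1.68 and -1.66 with TLR2.CD86, -1.31 and -1.61 with anti-CD40, and -1.30 and -1.45 with anti-CD40 + Pam2CSK4. All 10 stimulated arrays lay below both unstimulated arrays. Its TLR2.CD86 difference was the only one called, a fall of 1.58-fold (log2 difference -0.66 ± 0.15, adjusted p = 0.0371). That call was kept without any single Pam2CSK4 or anti-CD40 array and lost without any other single array (-0.69 to -0.62, adjusted p 0.0289 to 0.195 over the 12). The other differences ran from -0.50 with Pam2CSK4 to -0.23 with anti-CD86. With anti-CD40 it was -0.45 (adjusted p = 0.0823), and without replicate 1 of anti-CD40 it was -0.60 and called.

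Mcl1 encodes a short-lived member that B cells need at most stages, and its level is set largely by protein turnover. Its brightest probe was 5.57 and 5.60 in unstimulated cells, 5.71 and 5.46 with Pam2CSK4, 5.79 and 5.56 with anti-CD86, 5.70 and 5.45 with TLR2.CD86, 5.50 and 5.21 with anti-CD40, and 5.61 and 5.61 with anti-CD40 + Pam2CSK4. Neighbouring conditions overlapped throughout, and the lowest mean, with anti-CD40, lay 0.23 under unstimulated cells (-0.23, 95% interval -0.59 to 0.13). Without a slide term, neither this probe nor the second, which ran from 4.70 to 5.28 over the 12 arrays, was called against unstimulated cells.

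**Figure D3:**
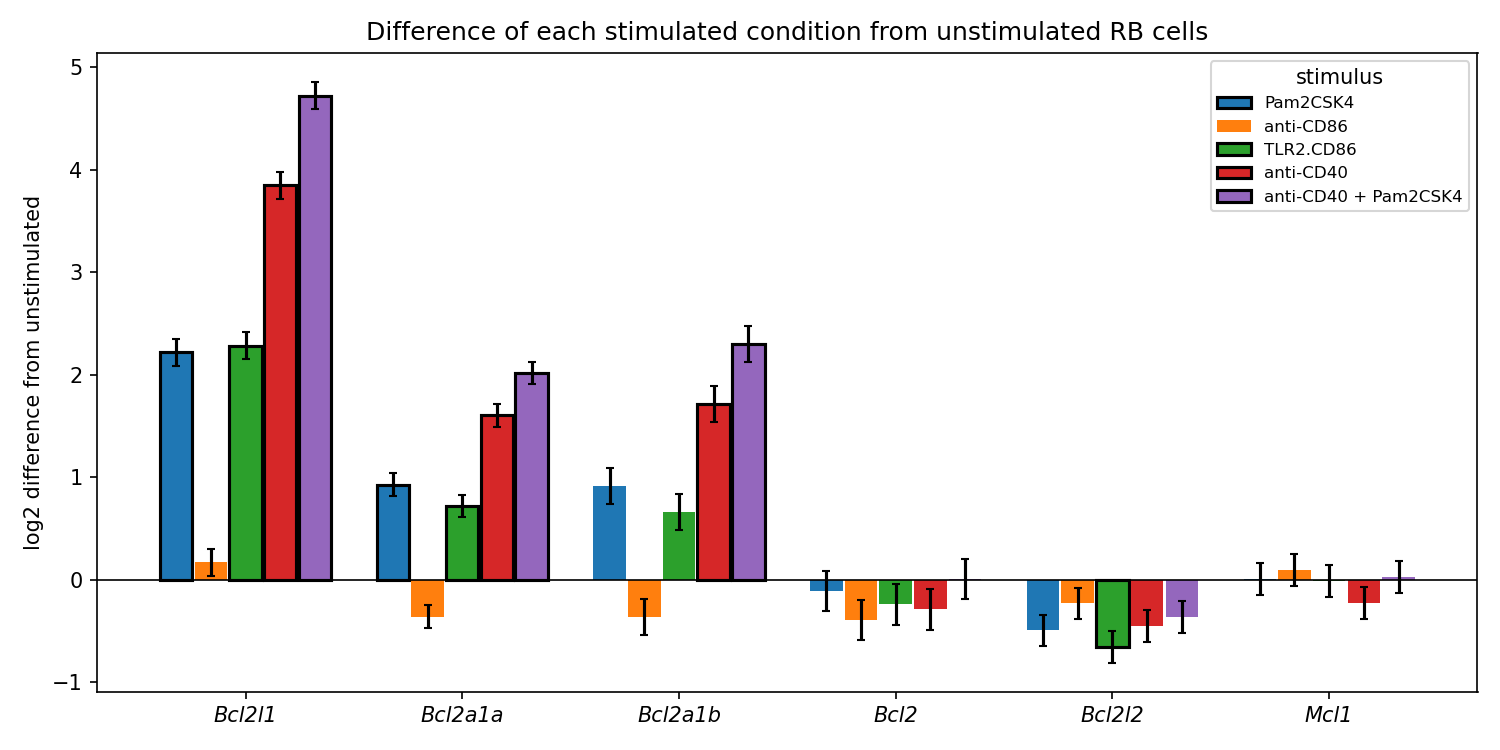
Log2 difference from unstimulated cells for each member and stimulus, as bars with the SE of limma, outlined where called. Bcl2l1 stands highest under every stimulus, up to 4.72, Bcl2a1a and Bcl2a1b reach 2.02 and 2.30, and Bcl2, Bcl2l2 and Mcl1 lie at or below 0.09.

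Counted over the 6 members, 2 were called with Pam2CSK4 (0.133% of all probes), 0 with anti-CD86 (2.07%), 3 with TLR2.CD86 (10.7%, 2 higher and 1 lower), 3 with anti-CD40 (16.8%, all higher) and 3 with anti-CD40 + Pam2CSK4 (18.1%, all higher). The median log2 difference of the 6 was 0.46, -0.30, 0.32, 0.69 and 1.02, beside -0.07, -0.05, -0.03, -0.02 and 0.01 over all probes. These comparisons share the unstimulated arrays. Scaling each array to its median instead moved the median difference of all probes from unstimulated cells to -0.26, -0.19, -0.32, -0.58 and -0.10, and the calls of Bcl2l2, Bcl2a1a and Bcl2a1b were then lost except those of the A1 genes with anti-CD40 + Pam2CSK4 (adjusted p = 0.0157 and 0.00523). When the slide was added as a term, 3 members were called with Pam2CSK4 (10.9% of all probes), 3 with anti-CD86 (28.5%), 4 with TLR2.CD86 (35.1%), 4 with anti-CD40 (37.4%) and 4 with anti-CD40 + Pam2CSK4 (47.5%). The added calls were Bcl2a1b with Pam2CSK4 and TLR2.CD86 (adjusted p = 0.00212 and 0.000919), and Bcl2l2 falling with anti-CD40 and with anti-CD40 + Pam2CSK4 (adjusted p = 0.0354 and 0.0197). For anti-CD86 they were a lower Bcl2a1a (-0.33, adjusted p = 0.0254), a lower Bcl2 (-0.22, adjusted p = 0.0404) and a higher Mcl1 (0.22, adjusted p = 0.0189). The second Mcl1 probe went the other way with anti-CD86 in this fit (-0.14, adjusted p = 0.250). It was called lower with TLR2.CD86 (-0.28, adjusted p = 0.0360).

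The effect of Pam2CSK4 could be compared across 3 backgrounds: no antibody, anti-CD86 and anti-CD40. Averaged over them, it raised 3 of the 6 members (2.85% of all probes were called): Bcl2l1 by 1.73 ± 0.08 on the log2 scale (adjusted p = 3.33e-05), Bcl2a1a by 0.81 ± 0.06 (adjusted p = 0.000610) and Bcl2a1b by 0.84 ± 0.10 (adjusted p = 0.00559). Each side of this average held the same number of arrays from each slide. Bcl2l2 was 0.28 lower (-0.28, adjusted p = 0.154). Once the slide was a term Bcl2l2 was called too, at the same difference (adjusted p = 0.0147), which made 4 members (27.3% of all probes).

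Adding Pam2CSK4 to anti-CD86 raised 2 members (0.225% of all probes). Bcl2l1 rose by 2.11 ± 0.13 (4.32-fold, adjusted p = 0.00137) and Bcl2a1a by 1.08 ± 0.11 (2.11-fold, adjusted p = 0.0119), while Bcl2a1b differed by 1.02 ± 0.18 (adjusted p = 0.111). The Bcl2l1 values on slide 1 and slide 2 were 2.25 and 1.97, and those of Bcl2a1a were 1.09 and 1.07. The Bcl2a1a call was lost without any 1 of the unstimulated, anti-CD86 or TLR2.CD86 arrays (1.07 to 1.09, adjusted p 0.0130 to 0.106 over the 12). With a slide term 4 members were called (7.78% of all probes).

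Adding anti-CD86 to Pam2CSK4 gave no called difference by the brightest probes (0 of 6, and 0.0633% of all probes). Bcl2l1 differed by 0.06 (95% interval -0.24 to 0.37), Bcl2a1a by -0.21 (-0.46 to 0.05) and Bcl2a1b by -0.26 (-0.66 to 0.15). The second Bcl2 probe differed by -0.39 (-0.63 to -0.15, adjusted p = 0.254), and with a slide term, which both conditions share equally, it was called lower (adjusted p = 0.0231, 11.1% of all probes). The interaction of Pam2CSK4 and anti-CD86, which asks whether their joint effect departs from the sum of the single log2 effects, was called for no member (0.019% of all probes). It was -0.11 for Bcl2l1 (95% interval -0.54 to 0.32), 0.15 for Bcl2a1a (-0.21 to 0.52) and 0.11 for Bcl2a1b (-0.47 to 0.68).

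Adding Pam2CSK4 to anti-CD40 raised 1 member (2.89% of all probes). Bcl2l1 rose by 0.87 ± 0.13 (1.83-fold, adjusted p = 0.0135), a call that was lost without either array of anti-CD40 + Pam2CSK4 or without replicate 2 of anti-CD40 (0.77 to 0.97, adjusted p 0.0180 to 0.117 over the 12). Bcl2a1a differed by 0.41 ± 0.11 (adjusted p = 0.103) and Bcl2a1b by 0.59 ± 0.18 (adjusted p = 0.138). In the fit that held the slide these were 0.38 and 0.44 and were called (adjusted p = 0.0251 and 0.00971), which made 3 members (15.3% of all probes).

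On the log2 scale, the joint effect of anti-CD40 and Pam2CSK4 on Bcl2l1 was smaller than the sum of the single effects. As folds over unstimulated cells, Pam2CSK4 gave 4.65, anti-CD40 14.4 and the combination 26.4. On the unlogged scale the combination thus exceeded the sum. The single log2 differences of 2.22 and 3.85 add to 6.07, and the combination gave 4.72, an interaction of -1.34 ± 0.19 (95% interval -1.77 to -0.91, adjusted p = 0.0167). Bcl2l1 was the 1 member called of 6 (1.15% of all probes). The second Bcl2l1 probe gave -1.35 ± 0.36 (adjusted p = 0.140). The third, not well above background in unstimulated cells, gave -0.72 (adjusted p = 0.333). The call was lost without any 1 of the unstimulated, Pam2CSK4 or anti-CD40 + Pam2CSK4 arrays (-1.45 to -1.24, adjusted p 0.0237 to 0.0990 over the 12). Under median scaling it was -0.69 (adjusted p = 0.457). With a slide term the interaction was -1.45 and was called, as were those of Bcl2a1a (-0.57, adjusted p = 0.0389) and Bcl2a1b (-0.62, adjusted p = 0.0205), or 3 members (8.55% of all probes). The Bcl2a1a spot was saturated on 1 array of each anti-CD40 condition, so its interaction may be misstated. Without that term they were -0.51 (adjusted p = 0.169) and -0.33 (adjusted p = 0.417), and both turned positive under median scaling. Median scaling also moved the median of this interaction over all probes, from 0.16 to 0.81.

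**Figure D4:**
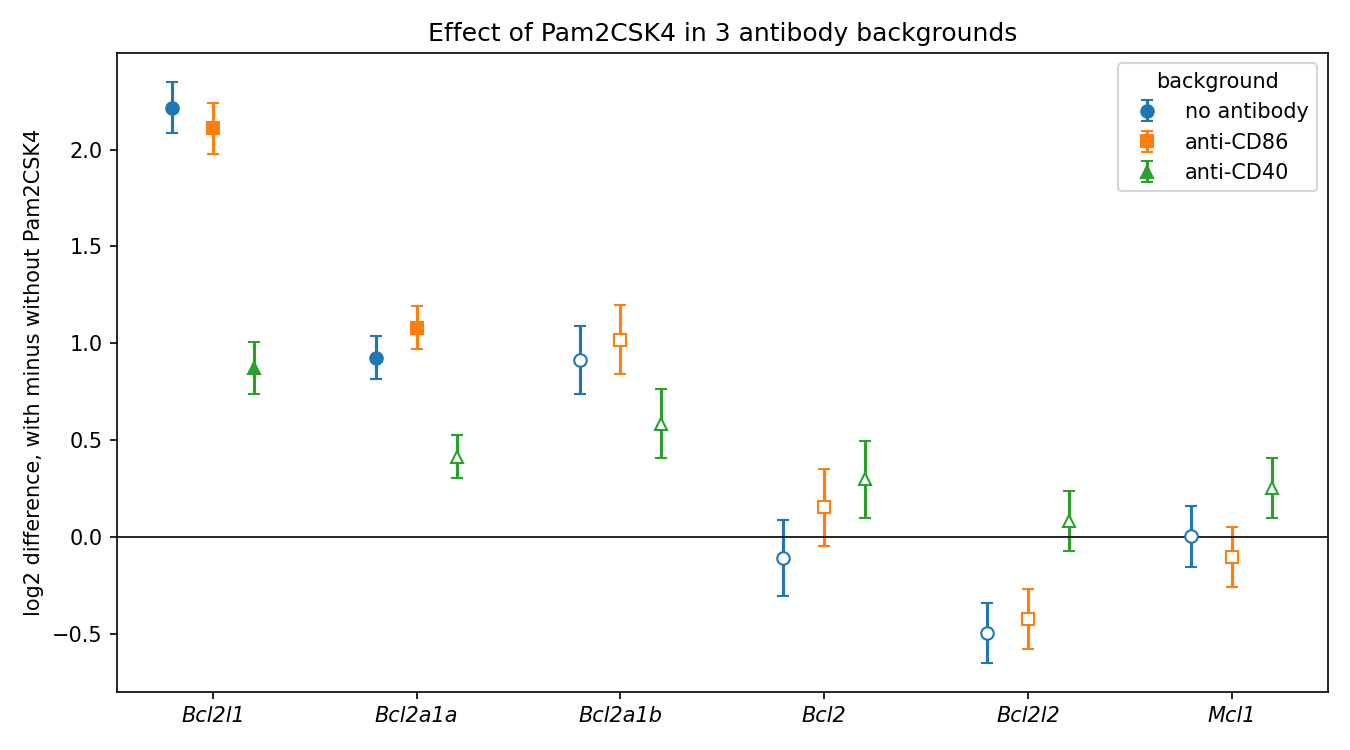
Log2 difference made by Pam2CSK4 in cells without antibody, with anti-CD86 and with anti-CD40, with the SE of limma and filled markers where called. For Bcl2l1 the difference is 2.22 and 2.11 in the first pair and 0.87 with anti-CD40, and the A1 genes also have their lowest value with anti-CD40.

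Anti-CD40 + Pam2CSK4 stood above both other Pam2CSK4 conditions for the same 3 members. Against Pam2CSK4 alone (9.81% of all probes called), Bcl2l1 was higher by 2.51 ± 0.13 (adjusted p = 4.90e-05), Bcl2a1a by 1.09 ± 0.11 (adjusted p = 0.00149) and Bcl2a1b by 1.38 ± 0.18 (adjusted p = 0.00375). Against TLR2.CD86 (12.2% of all probes called), they were higher by 2.44 ± 0.13, 1.30 ± 0.11 and 1.64 ± 0.18 (adjusted p = 6.54e-05, 0.000637 and 0.00164). By their brightest probes, Bcl2, Bcl2l2 and Mcl1 were called in neither, while the second Bcl2 probe was lower than with Pam2CSK4 alone (-0.65, adjusted p = 0.00870).

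The genes whose signal followed a member most closely over the 12 arrays were sought among 13618 other symbols measured on every array, as a description. For Bcl2l1 they were Irf4, a transcription factor of activated B cells (r = 0.994), Il2ra, the IL-2 receptor alpha chain (r = 0.994), Sema7a (r = 0.992), Cdk5r1 (r = 0.990) and Ankrd33b (r = 0.986). For Bcl2a1a they were Bcl2a1c (r = 0.993), Bcl2a1b (r = 0.992), Batf (r = 0.991), Cdk5r1 (r = 0.991) and Ebi3 (r = 0.987), and for Bcl2a1b they were Bcl2a1c, Batf, Ebi3, Mfsd2 and Myc (r = 0.997, 0.997, 0.997, 0.996 and 0.996). Those of Bcl2l2, with its narrow range, were Rnu12, Lmo4, Aga, Prickle1 and Rbm47 (r = 0.985 to 0.935). The arrays share slides and conditions, so these values describe likeness only.

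The partners of these proteins were read from the same arrays. Of the effectors Bax, Bak1 and Bok, 2 could be tested and neither was called against unstimulated cells (0.133% to 18.1% of all probes). With a slide term, 1 was called with anti-CD40 + Pam2CSK4 (47.5% of all probes). Of 8 BH3-only genes, 6 could be tested (Bik and Hrk were not well above background), and their calls went both ways. They numbered 0, 1, 2, 3 and 4 with Pam2CSK4, anti-CD86, TLR2.CD86, anti-CD40 and anti-CD40 + Pam2CSK4 (0.133%, 2.07%, 10.7%, 16.8% and 18.1% of all probes). With a slide term they numbered 3, 2, 2, 5 and 5 (10.9%, 28.5%, 35.1%, 37.4% and 47.5% of all probes). With anti-CD40 + Pam2CSK4, Bid rose by 0.93 (adjusted p = 0.00901) and Bcl2l11, which encodes BIM, by 0.70 (adjusted p = 0.0308), while Bmf fell by 0.79 (adjusted p = 0.00851) and Pmaip1, which encodes NOXA, fell by 0.62 (adjusted p = 0.0224). Pmaip1 also fell with anti-CD40 (by 0.68, adjusted p = 0.0207), with anti-CD86 (by 0.85, adjusted p = 0.0376) and with TLR2.CD86 (by 0.85, adjusted p = 0.0174), where Bbc3, which encodes PUMA, fell by 0.69 (adjusted p = 0.0451).

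Of 8 other inhibitors of apoptosis, 7 could be tested. In the same order of stimuli, 0, 0, 1, 4 and 3 were called (0.133%, 2.07%, 10.7%, 16.8% and 18.1% of all probes). With a slide term 2, 2, 1, 6 and 4 were called (10.9%, 28.5%, 35.1%, 37.4% and 47.5% of all probes). Birc2, Birc3 and Birc5 rose with anti-CD40 (by 0.88, 0.93 and 0.88, adjusted p = 0.00432, 0.0126 and 0.00449) and with anti-CD40 + Pam2CSK4 (by 0.98, 1.35 and 1.01, adjusted p = 0.00144, 0.00189 and 0.00132). Birc2 and Birc3 encode cIAP proteins that act in NF-kB signalling, and Birc5 encodes survivin, known also for its part in cell division. Birc6 fell by 0.43 with TLR2.CD86 (adjusted p = 0.0429) and by 0.48 with anti-CD40 (adjusted p = 0.0239). The list's median was 0.74 with anti-CD40 + Pam2CSK4 and 0.02 with TLR2.CD86, beside 0.01 and -0.03 over all probes.

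Of the NF-kB subunit genes, 3 of 5 were called with anti-CD40 (16.8% of all probes), Nfkb1 (0.98, adjusted p = 0.00881), Nfkb2 (0.81, adjusted p = 0.0486) and Rel (0.50, adjusted p = 0.0360), and 3 with anti-CD40 + Pam2CSK4 (18.1%), Nfkb1 (1.33, adjusted p = 0.00156), Nfkb2 (1.19, adjusted p = 0.0109) and Rela (0.83, adjusted p = 0.0349). None of the 5 was called with Pam2CSK4, anti-CD86 or TLR2.CD86 (0.133%, 2.07% and 10.7% of all probes). With a slide term, however, 3 were called in each of these (10.9%, 28.5% and 35.1%) and 5 in both anti-CD40 conditions (37.4% and 47.5%). The directions of these calls are not given here, and with anti-CD86 the subunits went both ways. Rel was 3.53 and 3.47 there, beside 4.04 and 4.12 in unstimulated cells, and Nfkb1 was 7.07 and 6.86, beside 6.66 and 6.74. Differences between stimuli are not described here for these genes. Of Huwe1, Usp9x and Fbxw7, which act on MCL1 turnover, none of 3 was called against unstimulated cells (0.133% to 18.1% of all probes). Among receptors, Tlr1, which encodes a partner of TLR2, rose with TLR2.CD86 (0.91, adjusted p = 0.0158), anti-CD40 (1.72, adjusted p = 0.00111) and anti-CD40 + Pam2CSK4 (1.85, adjusted p = 0.000286). Cd40 rose in the last pair (1.05 and 1.53, adjusted p = 0.0264 and 0.00482). Without a slide term, Tlr2, Tlr6, Myd88 and Cd86 were not called against unstimulated cells.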

How the data were processed

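For a 1-colour custom Agilent mouse array annotated to mm9, the authors deposited the scanner output of Feature Extraction 10.5.1.1, which holds a processed signal intensity per spot, corrected for background within the array. The authors' own table of log2 values was deposited as well and served as an alternative. Control and outlier spots were left out here, spots of a probe were averaged, and log2 intensity minus the array's 75th percentile was analysed. A probe had to exceed background clearly in each array of at least 1 condition, which 31667 of 61307 did, and 31599 were tested after 68 with a missing value were left out. Tests used limma 3.58.1 (R 4.3.3) over all 12 arrays, with Benjamini-Hochberg adjustment, and 13 comparisons were made. The test was checked on simulated data with known changes, with and without a slide difference. Alternatives were median and quantile scaling, normexp correction (offset 50), the filter on dim probes, the slide, the replicate number, each array left out, an unmoderated model and only the groups compared. The number of arrays limits the precision. The members and gene lists were chosen with earlier results of these data known. Members were named in full, pathway genes by fixed lists, and likeness by the 5 highest correlations for members called against unstimulated cells. Python 3.11.15 was used for tables. Sequences came from the array files and RefSeq (GRCm38.p6).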

Additional observations from a re-analysis of the deposited data

Results flagged for a closer look

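The log2 effect of Pam2CSK4 on Bcl2l1 differed between cells with and without anti-CD40, by a test of the difference itself. The interaction was -1.34 on the log2 scale (adjusted p = 0.0167), with a rise of 2.22 without antibody and 0.87 with anti-CD40. The call depended on single arrays, as given above. It was also lost under median scaling (-0.69, adjusted p = 0.457), with no filter on dim probes and with only the groups compared. Median scaling moved the median of this interaction over all probes from 0.16 to 0.81. The second Bcl2l1 probe gave -1.35 and was not called (adjusted p = 0.140). Groups of 2 arrays were too small to look for single arrays that stand apart.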

How the results depend on the processing

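Against unstimulated cells, the Bcl2l1 calls for Pam2CSK4, TLR2.CD86, anti-CD40 and anti-CD40 + Pam2CSK4 were kept with every single array left out and under median scaling. Median scaling lowered the count of members called to 1 for Pam2CSK4, for TLR2.CD86, for anti-CD40, for Pam2CSK4 averaged over backgrounds and for anti-CD40 + Pam2CSK4 against Pam2CSK4, and to 0 for TLR2.CD86 against anti-CD86, for anti-CD40 + Pam2CSK4 against anti-CD40 and for the interaction with anti-CD40. With no filter on dim probes the count was 1 for Pam2CSK4, TLR2.CD86 and TLR2.CD86 against anti-CD86, and 0 for anti-CD40 + Pam2CSK4 against anti-CD40 and for the interaction with anti-CD40. With only the groups compared, which leaves fewer arrays to estimate the spread, it was 0 for Pam2CSK4, TLR2.CD86, anti-CD40, TLR2.CD86 against anti-CD86, anti-CD40 + Pam2CSK4 against anti-CD40 and the interaction with anti-CD40. With the slide as a block it was 4 for TLR2.CD86 against anti-CD86 (7.78% of all probes, against 0.225% without the block), and 3 for anti-CD40 + Pam2CSK4 against anti-CD40 (15.3%, against 2.89%), for anti-CD86 (28.5%, against 2.07%) and for the interaction with anti-CD40 (8.55%, against 1.15%). The unmoderated model gave 2 for anti-CD40 + Pam2CSK4 against anti-CD40, and quantile scaling gave 2 for the interaction with anti-CD40. Where no share of all probes stands beside a count, a change in it cannot be told from a change in calls over all probes. Apart from the settings whose construction is stated, the cause was not tested.

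With each array left out in turn, the count ran from 1 to 2 for Pam2CSK4 and for TLR2.CD86 against anti-CD86, from 1 to 4 for TLR2.CD86, from 3 to 4 for anti-CD40, and from 0 to 1 for anti-CD40 + Pam2CSK4 against anti-CD40 and for the interaction with anti-CD40. It was 3 throughout for the other comparisons of anti-CD40 + Pam2CSK4 and for the Pam2CSK4 average, and 0 throughout for anti-CD86, TLR2.CD86 against Pam2CSK4 and the interaction with anti-CD86. The share of all probes called was not set beside these counts, so they cannot be read as results about the members alone.

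Over all members and comparisons, 69 of 1866 values under the alternatives changed sign, 0 of them while called in either fit. Not all are listed here. Under median scaling they included the interactions with anti-CD40 of Bcl2a1a (0.14) and Bcl2a1b (0.32), and Bcl2l1 in TLR2.CD86 against Pam2CSK4 (-0.028). That Bcl2l1 difference was -0.025 within slide 2 and ran from -0.051 to 0.18 with an array left out. The interaction with anti-CD86 was -0.040 for Bcl2a1b with the slide as a block and ran from -0.035 to 0.25 with an array left out, including -0.026 without replicate 2 of Pam2CSK4 and -0.011 without replicate 1 of TLR2.CD86. For Bcl2l1 it ran from -0.22 to 0.0085, and with the median over its probes it was 0.14, while the anti-CD86 difference of Bcl2l1 was -0.017.

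Same-numbered samples did not deviate together in every pair of conditions (15 pairs, correlations -0.11 to 0.67, 6 over 0.1), so the numbers were not taken as pairs. Those 6 were the pairs among Pam2CSK4, anti-CD86, TLR2.CD86 and anti-CD40 (0.54 to 0.67), whose replicate 2 lay on slide 2. Within these conditions, replicate number and slide cannot be told apart. The remaining pairs reached 0.067 at most. The replicate block gave 3 members called for Pam2CSK4 (0.769% of all probes), 4 for TLR2.CD86 (24.8%), 4 for anti-CD40 (30.2%) and 4 for anti-CD40 + Pam2CSK4 (27.2%).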
